A study of Rattus norvegicus with 6 samples.

Results

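The Slc25 family of mitochondrial carriers was examined in kidney cortex from 6 rats, all male, of the Sprague-Dawley (Crl:CD(SD)) stock and bought at 5 weeks of age. The 3 controls received water for 4 weeks, and the other 3 animals received n-nitrosodimethylamine (NDMA) at 4 mg/kg/day for the same time. NDMA is a small nitrosamine whose oxidation by cells yields a DNA-methylating agent. Total RNA of each animal was hybridised to its own 1-colour Agilent rat array, so n is 3 animals per group throughout, and no label names a genetic change or a second agent. Whole cortex was measured, in which a lower signal from fewer cells of a type and from less RNA per cell cannot be told apart. Members were the probes whose accession belongs to a RefSeq gene with a symbol beginning with Slc25a. They were 80 of the 61657 probes and represented 38 genes, and 73 of these probes, for 36 genes, met the detection filter, which asks that every array of one group or the other be well above background. No probe carried an accession matched to Slc25a12, Slc25a13, Slc25a26, Slc25a36, Slc25a40, Slc25a43, Slc25a45 or Slc25a48, which are not analysed here.

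Mitochondrial carriers are proteins of similar fold that sit in the inner mitochondrial membrane, for the most part, and exchange metabolites between the matrix and the cytosol. They bring ADP and phosphate to ATP synthase, move reducing equivalents and citrate, and carry amino acids, fatty acyl groups and cofactors. Proximal tubule cells, which make up most of the cortex, are rich in mitochondria and depend on oxidative metabolism for transport. Each value below is a log2 signal relative to the 75th percentile of its own array, for the brightest probe of a gene, and a difference is NDMA minus control with the standard error of limma's moderated test. Adjusted p-values are Benjamini-Hochberg values over the 31915 features tested, with a threshold of 0.05. Signals are compared between animals and not between probes.

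Most carriers were slightly lower in the NDMA-treated cortex, and a single member, Slc25a30, passed the test. Of the 36 measured genes 1 fell and 0 rose, that is 2.78% lower, where 0.476% of all features passed in the lower direction and 2.52% in the higher. With limma's unadjusted p under 0.05, 10 members (27.8%) were lower and 2 (5.56%) higher, against 10.3% and 8.5% of all features. The 2 higher were Slc25a24 and Slc25a27, and Slc25a27 was measured only through the NDMA group, where it was brighter. The difference was below 0 for 30 members (83.3%), against 58.7% of all features, and the median was -0.15 against -0.05. All 3 NDMA animals were below every control for 14 members (38.9%), where this held for 16.5% of features, and above every control for 1 member, where it held for 11.1%. These counts use the brightest probe. Of the members below every control, Slc25a4, Slc25a5, Slc25a15, Slc25a17, Slc25a29, Slc25a39 and Slc25a51 had overlapping groups on another probe. With the mean of a gene's probes the count below every control was 12, against 16.6% of features. Among the 26 members with a mean signal over the array's 75th percentile, 24 were below 0 with a median of -0.17, and features of that signal range were below 0 in 63.5% of cases with a median of -0.06. For 12 of these 26 members all treated animals were below every control, which held for 22.3% of features of that range.

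The shift of the family was small in each animal. The member median lay 0.09 below the control mean in NDMA animal 1, with 25 of 36 members lower (a median of -0.09). In animals 2 and 3 the medians were -0.24 and -0.19, with 28 and 30 members lower. The medians over all features in the same animals were -0.03, -0.05 and -0.05. The shares of all features below the control mean were 55%, 55.7% and 58.8%. NDMA animal 1 shared slide 1 with the controls, whereas animals 2 and 3 were on slide 2, with a different scan day. On slide 1 alone, where the NDMA group is 1 animal, 25 members (69.4%) were below 0, against 55% of all features. Under the 4 other scalings and background corrections, 29 or 30 members were below 0 while the share of all features below 0 ran from 56.3% to 68.3%. With normexp background correction and the 75th percentile, 363 features fell in place of 152, or 1.14%, and 66.7% of called features were higher in place of 84.1%. With normexp and quantile normalisation, 214 features fell (0.671%) and 80% of called features were higher.

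**Figure D1:**
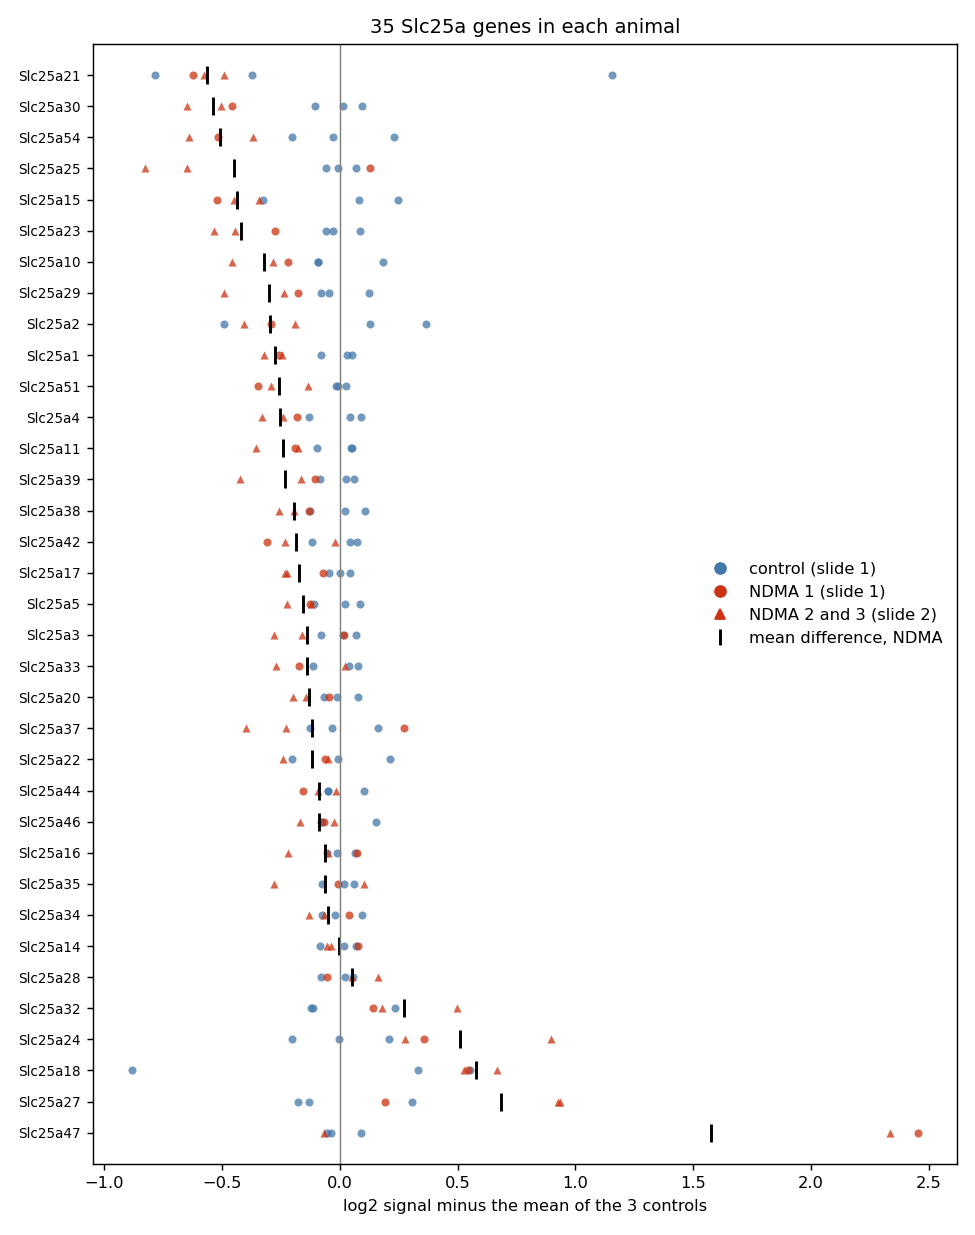
Log2 signal of 35 of the 36 measured Slc25a genes in every animal, relative to the mean of the 3 controls, ordered by the mean difference. Blue circles are controls, the red circle is NDMA animal 1 on the same slide, red triangles are NDMA animals 2 and 3 on slide 2, and the black bar is the mean difference. For Slc25a30 all 3 NDMA animals lie between -0.65 and -0.46, and the bars of 29 of the genes drawn lie below 0.

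**Figure D2:**
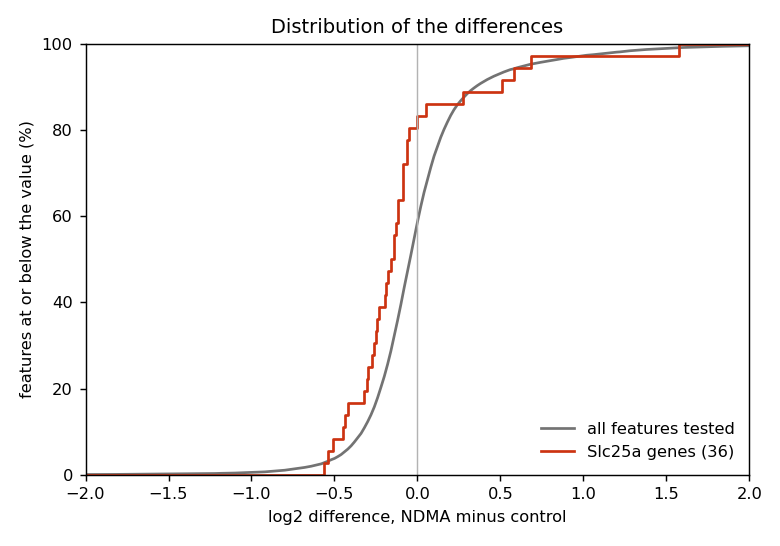
Share of features (vertical axis, %) at or below each log2 difference between NDMA and control (horizontal axis), for the 36 Slc25a genes in red and all 31915 features in grey. The red curve lies to the left of the grey one around 0, where 83.3% of the carriers and 58.7% of all features are below 0.

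Slc25a30, also called kidney mitochondrial carrier protein 1, is a relative of the uncoupling proteins known for its expression in kidney. Its signal was 3.23, 3.15 and 3.03 in controls 1 to 3 and 2.68, 2.64 and 2.49 in NDMA animals 1 to 3. The lowest control was above the highest treated animal. Slc25a30 fell 1.45-fold (log2 difference -0.54 ± 0.10, 95% interval -0.77 to -0.31, limma adjusted p = 0.0419). A second Slc25a30 probe, at a lower signal, gave -1.07, -1.15 and -1.30 in the controls and -1.78, -1.67 and -1.76 after NDMA, also without overlap. Its difference was -0.57 ± 0.09 (limma adjusted p over probes 0.0323). On slide 1 alone, with 1 treated animal, the difference was -0.46. The Slc25a30 call was lost in the fit with a term for slide (limma adjusted p = 0.336), with a block for replicate number (0.0868) and with no detection filter. It was also lost in each of the 6 fits without 1 animal (0.069 to 0.152).

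The other two relatives of the uncoupling proteins did not pass. Slc25a14, whose product is named brain mitochondrial carrier protein, was 0.31, 0.41 and 0.46 in the controls and 0.47, 0.36 and 0.34 after NDMA. Its difference was -0.01 ± 0.09, and the 95% interval ran from -0.21 to 0.20. Slc25a27, or uncoupling protein 4, was well above background in 1 control and all 3 treated animals and so was measured only through the group in which it was brighter. It gave -5.27, -5.75 and -5.71 in the controls and -5.38, -4.65 and -4.64 after NDMA (0.68 ± 0.24, adjusted p = 0.209). The treated animals on slide 2 were the higher ones, and animal 1 lay among the controls.

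Uncoupling protein 2 (Ucp2), a member of the same protein family under another symbol, rose. Its signal was -0.84, -0.69 and -0.40 in the controls and 0.21, -0.01 and 0.29 after NDMA, with no overlap. Ucp2 was 1.75-fold higher (0.80 ± 0.14, adjusted p = 0.0409). Ucp2 is widely known from macrophages and lymphocytes as well as from other tissues. In the same arrays 9 of 12 measured macrophage and dendritic cell markers and 8 of 11 T cell markers rose. The share of all features that rose was 2.52%. The part of these markers in the Ucp2 value was not tested. The Ucp2 call was lost with a term for slide (difference 0.85, adjusted p = 0.252), on slide 1 alone (0.283), with a replicate block (0.0804), with no detection filter (0.11) and without any animal except control 3 (0.0769 to 0.13). Ucp1, the uncoupling protein of brown fat, was near background (0.35 ± 0.41, adjusted p = 0.673), and no probe of Ucp3, the muscle form, passed the detection filter. Mtch1 and Mtch2, divergent carriers of the outer membrane, differed by -0.23 ± 0.09 and -0.07 ± 0.09 (adjusted p = 0.232 and 0.698).

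The carriers that supply ATP synthase and export ATP were lower by small amounts that did not pass. Slc25a4 (ANT1), an ADP/ATP exchanger, was 5.71, 5.66 and 5.49 in the controls and 5.43, 5.38 and 5.29 after NDMA. The groups did not overlap on this probe, and the difference was -0.25 ± 0.09 (adjusted p = 0.231). Its other 2 probes differed by -0.21 and -0.27 with overlapping groups. Slc25a5 (ANT2), the exchanger of growing cells, differed by -0.16 ± 0.09, and its 4 probes ran from -0.25 to -0.13. The rat genome holds several pseudogenes of Slc25a5, and binding of related transcripts to its probes was not tested. Slc25a3, the phosphate carrier, differed by -0.14 ± 0.10 with overlapping groups (adjusted p = 0.495).

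The calcium-activated carriers of ATP-Mg and phosphate differed in sign, and 0 passed. Slc25a23 (SCaMC-3) was 5.08, 5.11 and 5.23 in the controls and 4.86, 4.61 and 4.69 after NDMA, with every treated animal below every control. Its difference was -0.42 ± 0.10 (1.34-fold lower), and it did not pass (adjusted p = 0.0952), though it did with a trended and robust variance (0.0363). The other Slc25a23 probe differed by -0.34 ± 0.09. Slc25a25 (SCaMC-2) was 6.64, 6.72 and 6.59 in the controls, 6.78 in NDMA animal 1 and 6.0 and 5.82 in animals 2 and 3. The 2 treated animals on slide 2 were low and the one on slide 1 was above every control. The difference was -0.45 ± 0.24 (adjusted p = 0.368) and 0.13 on slide 1 alone. Without NDMA animal 1 it was -0.74 (limma adjusted p = 0.0388). In that fit all controls were on slide 1 and all treated animals on slide 2, so treatment and slide cannot be told apart. The second Slc25a25 probe had the same order of slides, with -0.18 in NDMA animal 1, -0.66 and -0.57 in animals 2 and 3 and between -0.18 and -0.12 in the controls.

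Slc25a24 (SCaMC-1), which is known from dividing and cancer cells, was the 1 member above every control in all treated animals. It was -0.33, -0.13 and 0.08 in the controls and 0.23, 0.77 and 0.15 after NDMA. The gap between control 3 and NDMA animal 3 was narrow, and the difference of 0.51 ± 0.19 (1.42-fold higher) did not pass (adjusted p = 0.235). A second, dimmer probe differed by 1.01 ± 0.45 with overlapping groups. That probe was well above background in 2 controls and all 3 treated animals, so it was measured only through the group in which it was brighter. NDMA animal 2, the highest for Slc25a24, also had the highest summed level of the dividing-cell markers, 15.1 against 9.25 and 9.83 in animals 1 and 3 and 3.95 to 4.58 in the controls (in multiples of the 75th percentile), and their part in this value was not tested. Slc25a54, the gene next to Slc25a24 on the chromosome, had the opposite sign. It was -3.79, -3.61 and -3.35 in the controls and -4.10, -4.22 and -3.95 after NDMA, without overlap (-0.51 ± 0.14, adjusted p = 0.130). A further carrier of this type, Slc25a41, was not well above background on any array.

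**Figure D3:**
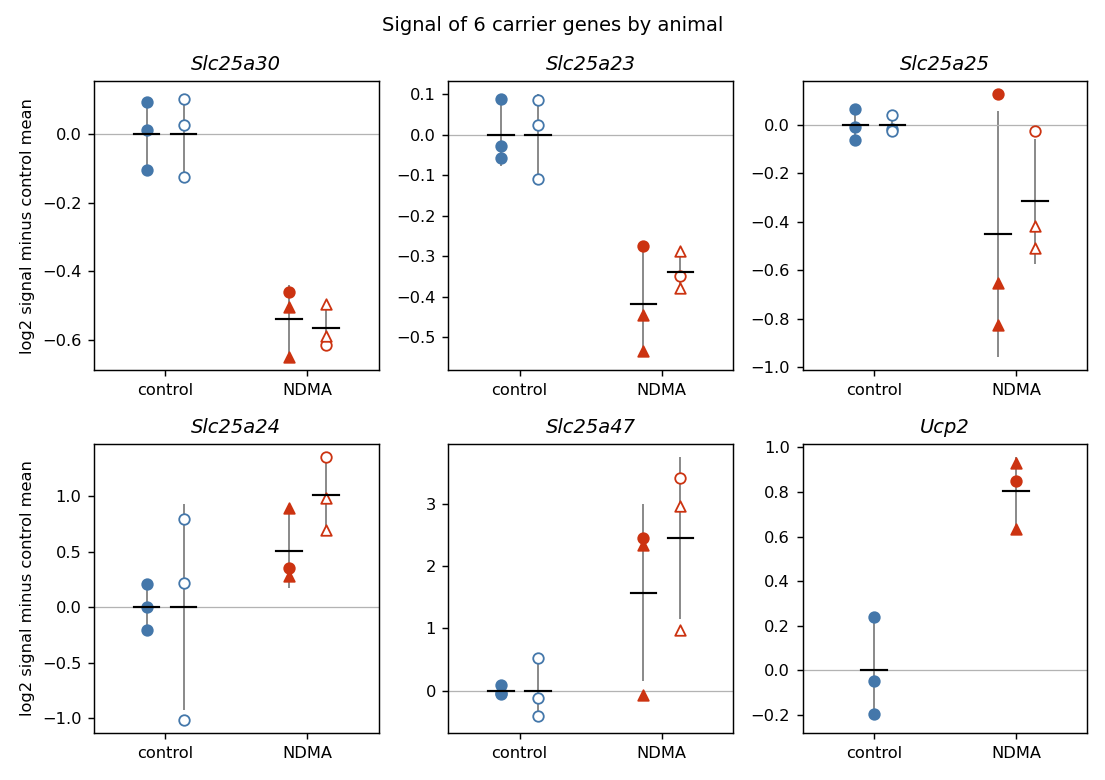
Log2 signal relative to the control mean (vertical axis) of Slc25a30, Slc25a23, Slc25a25, Slc25a24, Slc25a47 and Ucp2 in each animal. Filled points are the brightest probe and open points a second probe of the same gene, circles are slide 1 and triangles slide 2, black bars are group means and grey lines 1 SD. Slc25a30 and Slc25a23 are low in all 3 treated animals on both probes, and Slc25a25 is low in the slide 2 animals, at -0.65 and -0.83 on the filled probe.

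Among carriers of carboxylates, glutamate and aspartate, 5 of 6 were below 0, with a median of -0.26, and 0 passed. Slc25a1, the citrate carrier, was 2.22, 2.25 and 2.11 in the controls and 1.94, 1.87 and 1.95 after NDMA. The groups did not overlap (-0.28 ± 0.08, adjusted p = 0.151). Slc25a10, the dicarboxylate carrier that exchanges malate and succinate for phosphate, was 5.48, 5.21 and 5.21 against 5.08, 4.84 and 5.02 (-0.32 ± 0.12, adjusted p = 0.220). Slc25a11, the oxoglutarate carrier of the malate-aspartate shuttle, differed by -0.24 ± 0.09 without overlap. All 3 were thus lower in every treated animal than in every control, by 1.18-fold to 1.25-fold, and none passed. Slc25a22, a glutamate carrier, differed by -0.12 ± 0.13 with overlapping groups. Slc25a21, the oxodicarboxylate carrier, had the lowest mean difference of the family (-0.56 ± 0.47, adjusted p = 0.548), but control 1 alone stood apart, at -1.30 against -2.83 and -3.24 in the other two controls and -3.08 to -2.95 after NDMA. Without control 1 its difference was 0.01. Slc25a18, the second glutamate carrier, was near background and above it in 2 controls and all treated animals (0.58 ± 0.36).

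In the group set up for carriers of basic amino acids, carnitine and glycine, 6 of 7 were below 0 and 0 passed. This group also held Slc25a44 and Slc25a47, which are described below, and Slc25a47 was the 1 above 0. Slc25a15, the ornithine carrier of the urea cycle, was 2.21, 2.04 and 1.64 in the controls and 1.44, 1.51 and 1.62 after NDMA. The groups were separated by a narrow gap (-0.44 ± 0.16, adjusted p = 0.216). A dimmer probe gave -0.73 ± 0.32 with overlapping groups. It was well above background in all 3 controls and 2 treated animals, so it was measured only through the control group, where it was brighter. Slc25a2, a second ornithine carrier, was dim (-0.30 ± 0.22). Slc25a29, a carrier of basic amino acids, was -0.56, -0.39 and -0.59 against -0.69, -1.0 and -0.75 (-0.30 ± 0.12, adjusted p = 0.237). Slc25a20, the carnitine-acylcarnitine carrier of fatty acid oxidation, differed by -0.13 ± 0.09, with a 95% interval from -0.34 to 0.08. Slc25a38, a glycine carrier needed for haem synthesis, differed by -0.19 ± 0.09 without overlap, and Slc25a44, linked to branched-chain amino acids, by -0.09 ± 0.09.

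Slc25a47, a carrier known from liver, had the highest mean difference of the family and did not pass (1.58 ± 0.66, adjusted p = 0.269). It was -4.57, -4.44 and -4.59 in the controls, -2.08 and -2.20 in NDMA animals 1 and 2, and -4.60 in animal 3. Thus 2 treated animals, 1 on each slide, were about 2.4 log2 units above the controls, at 2.46 and 2.34, and the third was at the control level. Without NDMA animal 3 the difference was 2.40 (limma adjusted p = 0.00883). That fit leaves out the 1 treated animal that was not high, so its p-value is no test of the treated group. In the controls, a second Slc25a47 probe did not reach well above background, and it gave -3.91, -4.36 and -6.36 in NDMA animals 1 to 3. It was measured only through the NDMA group, whose mean was at least 2.34-fold above the controls' floor of -6.1. The floor is the mean over control arrays of the lowest signal well above background, or of the probe's own signal where that was higher. NDMA animal 3 lay below it, so the bound holds for the group mean and not for that animal. Of 12 measured hepatocyte genes, a list chosen after the data were seen, 0 passed, and their summed level was 31.6, 18.0 and 17.1 in NDMA animals 1 to 3 and 16.3 to 25.8 in the controls. Albumin (Alb) was at 3.01, -4.08 and -1.03 in NDMA animals 1 to 3 and between -5.61 and 0.74 in the controls. Fgb, a fibrinogen chain, was at 0.96, 2.07 and -0.65 in NDMA animals 1 to 3 and at -0.63, -0.42 and -1.0 in the controls, so it was high in the same 2 animals as Slc25a47. In NDMA animal 2 the other fibrinogen chains, Fga and Fgg, were also above the control mean, and the other measured genes of the list were below it. The list's median relative to the control mean was 1.97, -0.74 and 0.04 in NDMA animals 1 to 3. The part of hepatocyte genes in the Slc25a47 value was not tested.

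Promoter sequences from the RefSeq table of build GRCr8 are shown for Slc25a23, Slc25a25 and Slc25a47 as examples of the carriers described above. These 3 were chosen after their values were seen, and other members with like differences also have an entry. Each is the 250 bases before the annotated gene start, on the strand of the gene. They lie at chr9:1985366-1985615 (minus strand) for Slc25a23, chr3:36116582-36116831 (minus strand) for Slc25a25 and chr6:133531491-133531740 (plus strand) for Slc25a47. Capitals mark the CCAAT box, the GC box GGGCGG and the cAMP response element TGACGTCA, each on either strand.
Slc25a23: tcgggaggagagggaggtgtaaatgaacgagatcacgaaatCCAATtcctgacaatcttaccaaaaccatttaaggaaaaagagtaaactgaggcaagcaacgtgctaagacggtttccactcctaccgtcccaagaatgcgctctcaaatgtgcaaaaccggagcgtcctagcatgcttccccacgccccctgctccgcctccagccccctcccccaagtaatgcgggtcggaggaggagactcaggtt
Slc25a25: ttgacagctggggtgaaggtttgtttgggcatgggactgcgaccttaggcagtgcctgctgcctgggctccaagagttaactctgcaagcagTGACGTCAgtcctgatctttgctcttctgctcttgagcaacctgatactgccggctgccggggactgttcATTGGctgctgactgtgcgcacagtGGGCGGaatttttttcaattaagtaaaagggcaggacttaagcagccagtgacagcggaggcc
Slc25a47: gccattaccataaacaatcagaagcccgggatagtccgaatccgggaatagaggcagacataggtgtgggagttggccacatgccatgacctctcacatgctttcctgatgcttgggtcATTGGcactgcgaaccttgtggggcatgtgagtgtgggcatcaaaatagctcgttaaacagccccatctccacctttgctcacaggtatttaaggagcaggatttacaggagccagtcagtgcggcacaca

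All 3 hold 1 CCAAT, and Slc25a25 alone of them holds TGACGTCA, the cAMP response element, 158 bases before the start. Promoters were found for 31 of the 36 members. CCAAT was in 19 of them (61.3%) and in 34% of the 33469 promoters of the table. The GC box GGGCGG was in 20 members (64.5%) and 30.5% of all promoters, and the members' windows had a median GC content of 58.4% against 51.2%. TGACGTCA was in 2 members, Slc25a25 and Slc25a33, and 1.59% of all promoters. The TATA box letters TATAAA and the half-site AAGGTCA of oestrogen-related receptors were each in 1 member, against 12.9% and 3.99% of all promoters. The NRF1 core motif (0.762% of all) and the E2F site TTTGGCGC (0.412%) were in 0 members. These are matches of letters on either strand, matches to different motifs may share bases, and they are given as a description.

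Of 7 carriers of nucleotides and cofactors 6 were below 0, with a median of -0.14, and 0 passed. Slc25a51, the NAD carrier, was 3.76, 3.71 and 3.73 in the controls and 3.38, 3.44 and 3.60 after NDMA. The brightest probe did not overlap between groups (-0.26 ± 0.09, adjusted p = 0.196), but its other 4 probes differed by -0.14 to -0.02. Slc25a17, a peroxisomal carrier of coenzyme A and related cofactors, differed by -0.18 ± 0.08, without overlap on its brighter probe only. Slc25a42, a coenzyme A carrier, differed by -0.19 ± 0.11. Slc25a16 and Slc25a33, a pyrimidine nucleotide carrier, differed by -0.06 ± 0.10 and -0.14 ± 0.11 with overlapping groups. Slc25a32, the folate and FAD carrier, was the 1 carrier of this kind above 0. It was -1.19, -0.84 and -1.19 in the controls and -0.93, -0.58 and -0.90 after NDMA (0.27 ± 0.15, adjusted p = 0.365), and its dimmer probe differed by 0.08.

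Of 3 carriers of iron and glutathione 2 were below 0, and 0 passed. Slc25a28 (mitoferrin-2) differed by 0.05 ± 0.09, with a 95% interval from -0.17 to 0.27, and its 3 probes lay on both sides of 0. Slc25a37 (mitoferrin-1), the iron importer of developing red cells, differed by -0.12 ± 0.19, with -1.30 in NDMA animal 1 and -1.97 and -1.80 in the slide 2 animals against -1.70 to -1.41 in the controls. Slc25a39, a glutathione carrier, was 4.18, 4.21 and 4.06 against 4.04, 3.73 and 3.99 (-0.23 ± 0.11, adjusted p = 0.316). Its groups did not overlap on this probe, by a narrow gap, and overlapped on its other probe. Among carriers with no settled substrate besides Slc25a54, Slc25a34, Slc25a35 and Slc25a46, an outer membrane protein linked to mitochondrial fission and fusion, differed by -0.05 to -0.09 with overlapping groups.

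Probes of one gene gave like values. Of 26 members with more than 1 measured probe, 24 had all probes on one side of 0, and the median range among the probes of a gene was 0.07. The widest range was that of Slc25a47, at 0.88. Slc25a53, which did not pass the filter, was well above background on 2 treated arrays and 0 control arrays. With the 34 members measured above background on all 6 arrays, 30 were below 0 and the median was -0.17.

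Genes that work beside the carriers were also mostly slightly lower, with few calls. Of 18 enzymes of the malate-aspartate shuttle and the tricarboxylate cycle, 18 were below 0 and 0 passed, with a median of -0.23. Suclg2, a subunit of succinyl-CoA synthetase, was the nearest to the threshold (-0.44 ± 0.09, adjusted p = 0.0559), followed by Sucla2, a subunit of the ATP-forming enzyme (-0.31 ± 0.09, adjusted p = 0.142). Of 11 genes that import carriers into the inner membrane, 11 were below 0 and 0 passed, with a median of -0.19. Their smallest p-values belonged to Timm13, a chaperone of the intermembrane space (-0.26 ± 0.08), and Agk, a subunit of the TIM22 complex (-0.29 ± 0.09). Other transporters and channels of the mitochondrial membranes were below 0 in 16 of 20 cases and 0 passed, with Letm1, an ion exchanger, at -0.34 ± 0.09 and Mpc1, a subunit of the pyruvate carrier, at -0.30 ± 0.08 (adjusted p = 0.108 and 0.127). In the carnitine shuttle 11 of 12 genes were below 0 and 0 passed, and Crat, carnitine acetyltransferase, was at -0.45 ± 0.09 (adjusted p = 0.0538) and Acadvl, the very-long-chain acyl-CoA dehydrogenase, at -0.22 ± 0.08 (adjusted p = 0.209). The medians of these lists lay between -0.23 and -0.12, against -0.05 for all features.

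In the partner lists Mthfd2 and Hmox1 passed. With normexp and the 75th percentile Suclg2, Crat, Nampt, Ak3 and Ppara, which are near the threshold, passed too (adjusted p = 0.0275, 0.0334, 0.0245, 0.0494 and 0.023). Of 17 enzymes of mitochondrial glycine, one-carbon and glutathione metabolism, 1 rose and 0 fell, with a median of -0.19. Mthfd2, a mitochondrial folate enzyme of dividing cells, was -1.89, -1.61 and -2.27 in the controls and -0.91, -0.88 and -1.02 after NDMA. All treated animals were above all controls, and it rose 1.98-fold (0.99 ± 0.17, adjusted p = 0.0399). Its call was lost with a term for slide (difference 1.02, adjusted p = 0.261), on slide 1 alone (0.345), with a replicate block (0.0728), with no detection filter (0.105) and without any animal except control 2 (0.0535 to 0.136). Of 14 genes of mitochondrial iron and haem synthesis, 1 rose and 0 fell. It was Hmox1, haem oxygenase 1, which degrades haem, at -1.01, -1.61 and -1.36 in the controls and -0.36, -0.23 and -0.46 after NDMA. Hmox1 was 1.97-fold higher (0.98 ± 0.16, adjusted p = 0.0341), and its call was lost with a term for slide (difference 0.97, adjusted p = 0.258), on slide 1 alone (0.325), with a replicate block (0.103), with no detection filter (0.0935) and without any animal except control 1 (0.0737 to 0.119).

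The remaining lists held 0 genes past the threshold. In nucleotide, NAD and cofactor supply, Nampt, which makes the NAD precursor, was nearest (0.55 ± 0.10, adjusted p = 0.0508), with Ak3, a mitochondrial adenylate kinase, at -0.38 ± 0.09 (adjusted p = 0.104). In the urea cycle and ornithine list, 6 of 10 genes were below 0 and 4 above, with a median of -0.07. Ass1 and Asl, which make and split argininosuccinate, had its smallest p-values and were at -0.35 ± 0.13 and -0.30 ± 0.12. Of 12 regulators of mitochondrial biogenesis 7 were below 0 with a median of -0.03. Ppara, the nuclear receptor of fatty acid oxidation, was 0.02, 0.63 and 0.23 in the controls and -1.25, -0.52 and -0.94 after NDMA, with no overlap. It was 2.29-fold lower and did not pass (-1.20 ± 0.23, adjusted p = 0.0542). Pprc1, a coactivator of the PGC-1 family, differed by 0.35 ± 0.13, and Ppargc1a, the best-known member of that family, and Tfam, the mitochondrial transcription factor, by 0.02 ± 0.14 and -0.04 ± 0.08.

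Markers of different cell types differed in direction and size of change. Of 14 measured proximal tubule markers 14 were below 0, 1 fell and 0 rose, with a median of -0.30. The one that fell was Lrp2, which encodes the endocytic receptor megalin (-0.57, adjusted p = 0.0448). Their summed level was 3200 to 3490 in the controls and 2490 to 2910 after NDMA. The loop of Henle and distal tubule list had a median of -0.16 over 6 markers, 0 of them called, and a summed level of 326 to 484 against 319 to 367. Macrophage and dendritic cell markers summed to 149 to 195 in the controls and 350 to 389 after NDMA, with 9 of 12 risen, and T cell markers to 2.29 to 3.02 and 6.59 to 7.62, with 8 of 11 risen. Of 11 markers of dividing cells 9 rose. The share of all features that rose was 2.52%. Cd3e among the T cell markers and Aurkb among those of dividing cells are counted as risen. Both were well above background in 2 controls and all 3 treated animals, so they were measured only through the group in which they were brighter. Among markers of other cells, 0 of 7 for endothelium, 0 of 6 for podocytes, 0 of 4 for red blood cells and 0 of 7 for brown fat and muscle passed, with medians of -0.08, 0.15, -0.02 and 0.07. The part of any of these markers in the carrier values was not tested.

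**Figure D4:**
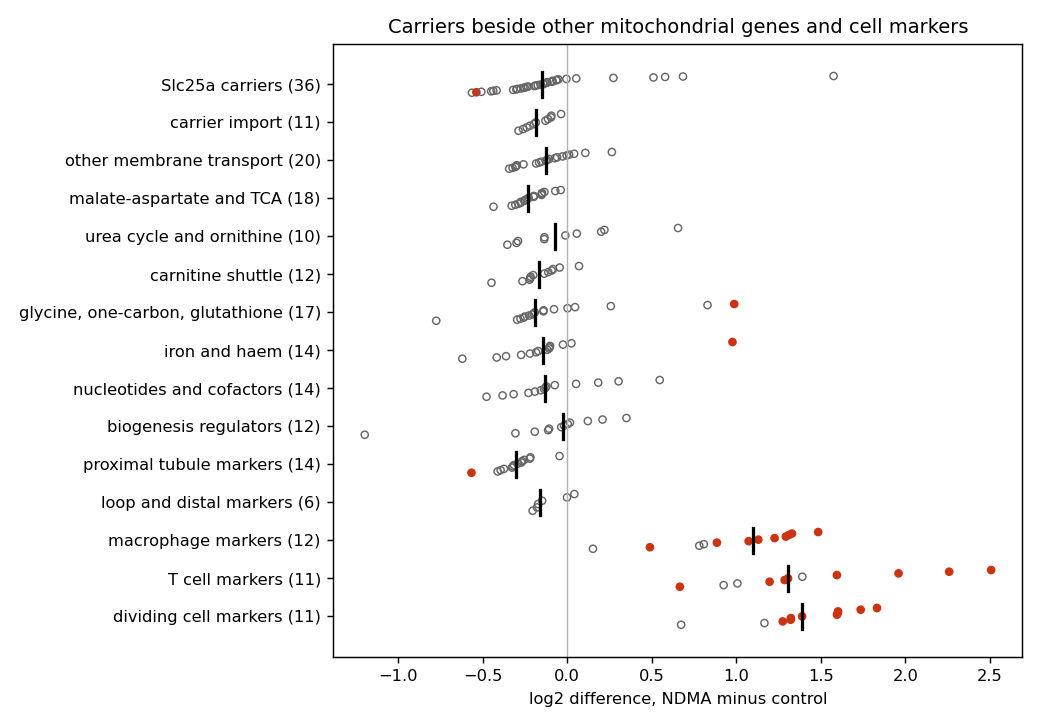
Log2 difference between NDMA and control (horizontal axis) of each measured gene in the Slc25a family, 9 lists of other mitochondrial genes and 5 lists of cell markers, with the number of genes in brackets. Filled red points passed at a limma adjusted p under 0.05, open points did not, and black bars are list medians. The bars of the carriers and of proximal tubule markers lie at -0.15 and -0.30, and those of macrophage and T cell markers at 1.1 and 1.31.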

How the data were processed

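The deposited processed intensity is Cy3 brightness per spot, background-subtracted and spatially detrended within its array, and the deposited median and background intensity are unscaled pixel values, made by the authors with Agilent Feature Extraction (10.7 per the submitters' processing notes, 10.7.1.1 per the file headers). In the value table, the deposited numbers are a linear ratio, which matched processed intensity over the array's 75th percentile (largest log2 difference 0.00174 for values above 0.1), so its scale and direction are known and genes were not centred. Its column medians were 0.112, 0.110 and 0.114 for controls and 0.115, 0.112 and 0.114 for NDMA. From log2 processed intensity the array's own 75th percentile over 61657 non-control probes was subtracted; its linear value was 993 to 1053 on slide 1 and 1310 and 1299 on slide 2. A probe was kept if every array of one group or the other had it well above background (43118 probes), 18 outlier values were set missing, and the brightest probe stood for a gene. Between 43016 and 46248 probes per array were well above background, and 0 to 4 were saturated. Names came from the RefSeq table of GRCr8 by accession without version, which named 27460 probes. The array's annotation build is rn4, so the only coordinates given are those of the promoter table.

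The comparison of NDMA and control used limma 3.58.1 under R 4.3.3, two-sided, over 31915 features (residual degrees of freedom 4, prior 2.36), and the fit was tested on simulated data. With 3 animals a group, the smallest p of an exact permutation test is 0.1, so none is given. The number of arrays limits the precision. The members and lists were chosen with earlier results of these data known. Named genes are the Slc25a genes on the array except 1, which is counted with the family and not reported here by name, Ucp1 to Ucp3, Mtch1 and Mtch2, and in each list up to 4 called genes by smallest p or, where none passed, the 2 with the smallest p. Ppargc1a, Tfam, the dividing-cell markers as a sum and the hepatocyte genes were added after their values were seen. Same-numbered animals did not deviate together (correlations of 0.04, -0.05 and 0.03).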

Additional observations from a re-analysis of the deposited data

How the results depend on the processing

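Of 20 alternatives, the count of Slc25a genes past the threshold stayed at 1, Slc25a30, under the other scalings, both normexp settings, the stricter filter, both other probe rules, the random slide block and the authors' value table. It was 2 with a trended and robust variance, and 0 with no detection filter, the slide as a fixed block, slide 1 alone and the replicate block, where 371, 67, 0 and 351 features passed in all. On slide 1 alone 3502 features had an unadjusted p under 0.05 in limma. The smaller counts without a filter go with 45877 features tested, and those on slide 1 with 1 treated animal. Without 1 animal the count of carriers was 0 to 1 and that of all features 364 to 749. It was 1 without NDMA animal 1 (Slc25a25) and without animal 3 (Slc25a47), and 0 without each of the others. Without NDMA animal 1 the groups were on separate slides, and NDMA animal 3 was the treated animal at the control level of Slc25a47. The number of members below 0 stayed between 25 and 30, their median between -0.19 and -0.09, and the number below every control between 10 and 18, while the share of all features below every control ran from 12.5% to 33.3% (10 members and 15.1% with normexp and quantile, 17 and 33.3% on slide 1 alone). The replicate block left the member median at -0.15.

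Over the members named and all alternatives, 659 values kept their sign and side of the threshold, 26 changed sign, 10 lost a call and 3 gained one. Among the other genes named, 342 kept both, 5 changed sign, 27 lost a call (Ucp2, Mthfd2 and Hmox1) and 25 gained one (Nampt, Ppara, Suclg2, Crat, Ak3, Letm1 and Mpc1). On slide 1, alone or with the slide as a block, Slc25a14 was at 0.076, Slc25a16 at 0.074, Slc25a25 at 0.13, Slc25a28 at -0.055, Slc25a3 at 0.016, Slc25a34 at 0.040, Slc25a37 at 0.27 and Mtch2 at 0.0077. With quantile normalisation Slc25a14 was at 0.00010 and Mtch2 at 0.013, and with normexp Slc25a14 was at 0.066 (75th percentile) and 0.069 (quantile) and Ucp1 at -0.071 (75th percentile). Without 1 animal, values ran from -0.047 to 0.028 for Slc25a14, -0.13 to 0.012 for Slc25a16, -0.96 to 0.014 for Slc25a21, -0.0018 to 0.11 for Slc25a28, -0.14 to 0.046 for Slc25a35, -0.32 to 0.021 for Slc25a37 and -0.12 to 0.66 for Ucp1. The cause was not tested. Signal over background limits Slc25a18, Slc25a27 and the dimmer probes of Slc25a15, Slc25a24 and Slc25a47.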
